A study of Homo sapiens with 18 samples.

Results

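The galectin genes LGALS1, LGALS3, LGALS8 and LGALS9, with LGALS3BP, which encodes a galectin-binding glycoprotein, were followed in 2 breast cancer cell lines exposed to CDK4/6 inhibitors. These 5 members were taken by symbol from the 60656 gene rows of the count table. They were selected with results of these data in view, and LGALS1 in particular was selected on its measured response to abemaciclib, which differed between the lines. The values of LGALS1 are therefore given as a description in every contrast, without a test.

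Galectins are small lectins that bind beta-galactoside sugars on glycoproteins and glycolipids. They are made without a secretion signal, act both inside the cell and, after unconventional export, at the cell surface, and cross-link the glycoproteins to which they bind. Galectin-1 (LGALS1) pairs with itself, galectin-3 (LGALS3) joins a single sugar-binding domain to a long flexible tail, and galectin-8 (LGALS8) and galectin-9 (LGALS9) carry a pair of different sugar-binding domains in one chain. The LGALS3BP product is a secreted, heavily glycosylated ligand of galectin-3 and galectin-1, not itself a galectin, and its gene is known to respond to interferon.

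CAMA-1 and ZR-75-1 are established oestrogen receptor-positive breast cancer lines, both wild-type parental cells here. Each was treated for 5 days with abemaciclib at 500 nM, palbociclib at 500 nM, or an equal volume of DMSO as the control. Both drugs inhibit the kinases CDK4 and CDK6 and so hold the retinoblastoma protein in its active state. There were 3 replicate libraries in each of the 6 groups, and RNA was measured by 3′ RNA-seq, in which reads come from the ends of transcripts.

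The 18 libraries held between 2308442 and 4146549 counts each. The biological coefficient of variation between replicates was 8.12% in CAMA-1 and 8.30% in ZR-75-1. Mitochondrial transcripts took 14.8% to 16.6% of counts in CAMA-1 with DMSO and 22.9% to 26.1% with either inhibitor, against 17.3% to 22.6% in all ZR-75-1 libraries. All 8 luminal epithelial markers, among them ESR1, GATA3 and KRT8, were detected, with a summed level of 4694 to 7516 CPM, a count scaled to the size of its library. The 4 blood-cell markers summed to at most 0.93 CPM. Levels below are CPM after trimmed-mean (TMM) scaling over all 18 libraries. A gene was called changed when its adjusted p was under 0.05 in edgeR's quasi-likelihood test over all genes that passed the filter on low counts (11053 in CAMA-1 and 11017 in ZR-75-1). LGALS1, LGALS3, LGALS3BP and LGALS8 passed that filter in both lines and LGALS9 in neither. In these cultures, a loss of cells of one kind and a loss of RNA per cell cannot be told apart.

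The start regions of LGALS3 and LGALS3BP, which both rose with the inhibitors in CAMA-1, are shown to set their differing base composition side by side. Each is the 250 bases before the RefSeq transcript start in GRCh38.p14, printed 5′ to 3′ on the gene's own strand. LGALS3 lies on the plus strand (chr14:55129002-55129251) and LGALS3BP on the minus strand (chr17:78979924-78980173). Capitals mark GGGCGG boxes, read on either strand, in LGALS3, and the interferon-stimulated response element core GAAANNGAAA in LGALS3BP.
LGALS3: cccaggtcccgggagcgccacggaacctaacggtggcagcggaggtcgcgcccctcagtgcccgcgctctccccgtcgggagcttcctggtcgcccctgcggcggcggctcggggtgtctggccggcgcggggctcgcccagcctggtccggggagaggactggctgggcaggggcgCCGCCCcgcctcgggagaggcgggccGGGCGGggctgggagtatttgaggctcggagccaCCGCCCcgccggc
LGALS3BP: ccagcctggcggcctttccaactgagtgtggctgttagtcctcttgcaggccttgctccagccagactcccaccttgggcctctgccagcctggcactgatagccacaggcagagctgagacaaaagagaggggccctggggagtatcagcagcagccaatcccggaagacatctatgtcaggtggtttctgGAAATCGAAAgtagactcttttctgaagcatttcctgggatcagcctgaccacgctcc
The LGALS3 window was 78.8% G or C, held 32 CpG dinucleotides, more than in 90.5% of 35116 RefSeq windows of the same length, and had 3 GGGCGG boxes, the letters for the factor SP1. The LGALS3BP window was 56.8% G or C with 4 CpG dinucleotides, against a median of 11 over all windows, and held no GGGCGG box. Its single match to the response element core began 58 bases before the start. On both strands, 42.6% of all windows held GGGCGG and 3.02% held the response element core. Neither window held the E2F letters TTTCCCGC or TTTGGCGC, present in 1.93% of windows, nor the full oestrogen response element GGTCANNNTGACC, present in 0.0399%. A match of letters is a description of the sequence and says nothing of what bound there. Of the other members, LGALS8 and LGALS9 also had windows in the table.

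By 3′ counts, LGALS1 was the most abundant of the members in all groups but ZR-75-1 with abemaciclib, where LGALS3, LGALS3BP and LGALS8 were higher. In untreated CAMA-1, its level was 752, 759 and 777 CPM in replicates 1, 2 and 3. With abemaciclib it was 1226, 1145 and 1126 CPM, and with palbociclib 1385, 1413 and 1377 CPM. All 3 groups of CAMA-1 libraries were separate from each other, with DMSO lowest and palbociclib highest. In untreated ZR-75-1, the level was 177, 173 and 176 CPM, already below every CAMA-1 library. With abemaciclib it was 38.7, 45.0 and 42.1 CPM, and with palbociclib 186, 173 and 150 CPM. In ZR-75-1 the abemaciclib libraries stood apart at the bottom, while the palbociclib libraries overlapped those of DMSO.

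**Figure D1:**
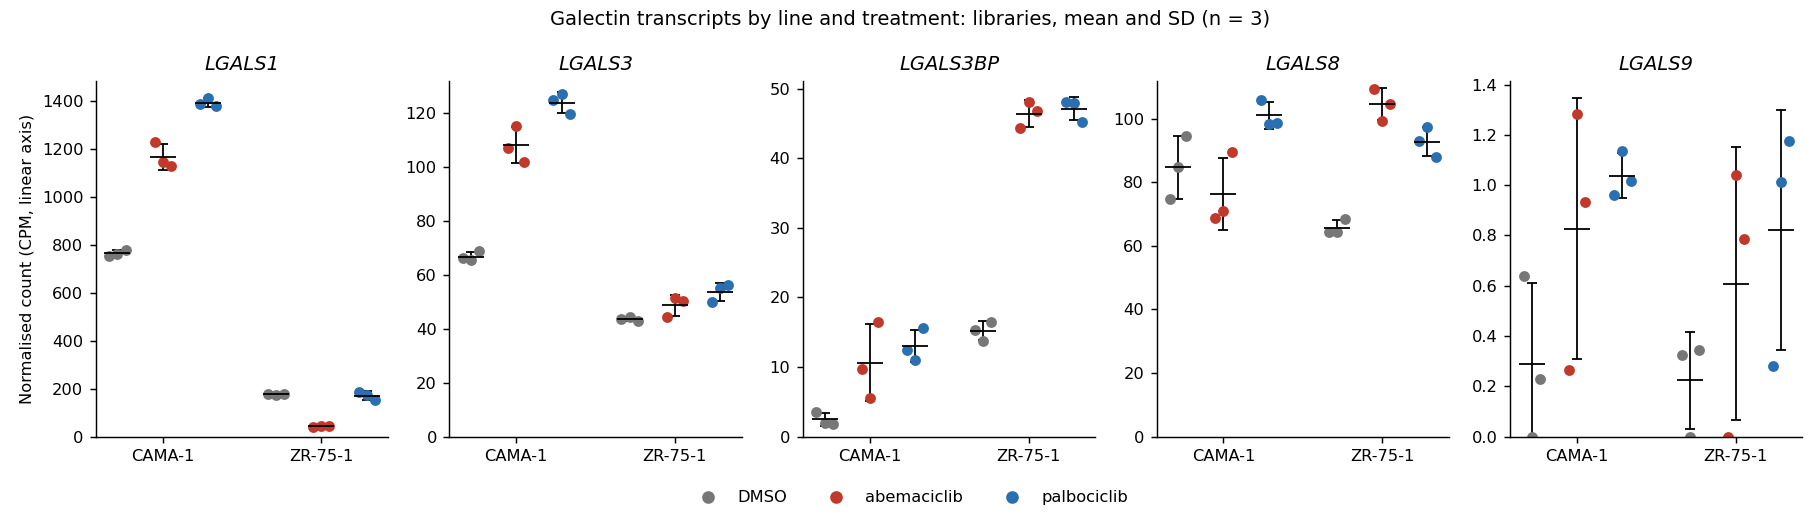
Levels of the 5 members in CPM (linear axis from 0) in each of 18 libraries, with CAMA-1 and ZR-75-1 along the horizontal axis; points are libraries coloured by treatment, and black bars give the mean and SD of 3. LGALS1 rises in CAMA-1 with both inhibitors and drops in ZR-75-1 with abemaciclib alone, to 41.9 CPM, while LGALS3BP is higher with either inhibitor in both lines.

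As group means, LGALS1 was 763 ± 13.0 CPM (SD, n = 3, as for all group means) in DMSO-treated CAMA-1, 1166 ± 53.3 with abemaciclib and 1392 ± 18.5 with palbociclib. The corresponding means in ZR-75-1 were 175 ± 2.45, 41.9 ± 3.17 and 170 ± 18.3 CPM. Ordered by level, the 6 groups ran CAMA-1 palbociclib, CAMA-1 abemaciclib, CAMA-1 DMSO, ZR-75-1 DMSO, ZR-75-1 palbociclib and ZR-75-1 abemaciclib, and only the neighbours ZR-75-1 DMSO and ZR-75-1 palbociclib overlapped. As a description, the log2 fold change with abemaciclib was 0.58 (SE 0.06) in CAMA-1 and -2.07 (SE 0.10) in ZR-75-1, that is 4.21-fold lower. Its fold change was the 213th lowest of 11017 genes in ZR-75-1 and the 1729th highest of 11053 in CAMA-1. Between the inhibitors, LGALS1 was lower with abemaciclib than with palbociclib by a log2 difference of -0.26 in CAMA-1 and -2.02 in ZR-75-1, the 91st lowest in the latter line. The difference between the lines in the abemaciclib response was -2.68 (SE 0.11) on the log2 scale.

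The palbociclib response of LGALS1 was not part of its selection, but it shares the DMSO libraries with the contrast that was. It is therefore also given without a test. In CAMA-1 LGALS1 was higher with palbociclib by 0.84 on the log2 scale (SE 0.06), 1.78-fold. In ZR-75-1 the log2 difference was -0.05 (95% interval -0.22 to 0.12). The difference between the lines in this response was -0.91 (SE 0.10).

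Galectin-1 is abundant in mesenchymal cells, so markers of such cells were read beside it. Of 6 basal or mesenchymal markers, KRT5 had no count in any library and the defining marker VIM had group means of 0.69 to 2.14 CPM. The summed level of the 6 per library was 2.98 to 4.46 CPM in CAMA-1 with DMSO, 10.0 to 12.8 with abemaciclib and 6.52 to 9.15 with palbociclib. In ZR-75-1 it was 38.2 to 46.0 CPM with DMSO, 18.5 to 20.4 with abemaciclib and 18.2 to 24.6 with palbociclib. The sum thus moved up in CAMA-1 and down in ZR-75-1 with both inhibitors, and in untreated cells it was higher in ZR-75-1, the line with less LGALS1. ACTA2, a smooth-muscle actin, had means of 1.89 CPM with DMSO, 8.38 under abemaciclib and 5.30 under palbociclib in CAMA-1, and of 7.75, 1.45 and 3.77 CPM in ZR-75-1. Most of the ZR-75-1 sum was CDH2, N-cadherin, with means of 33.5, 17.4 and 17.1 CPM in the same order, against at most 0.70 CPM in CAMA-1. Both means were thus also below DMSO under palbociclib in ZR-75-1 (edgeR adjusted p = 0.057 for ACTA2 and 2.1e-05 for CDH2), where LGALS1 overlapped its DMSO level. For the 4 fibroblast markers, a separate list, the sums overlapped between DMSO and either inhibitor in both lines. Their summed level per library was 14.3 to 24.0 CPM in CAMA-1 with DMSO, 16.5 to 19.7 with abemaciclib and 16.1 to 19.7 with palbociclib. In ZR-75-1 it was 19.9 to 28.6 CPM with DMSO, 23.1 to 33.8 with abemaciclib and 25.0 to 30.2 with palbociclib. In CAMA-1 this sum held opposite moves. COL3A1 had means of 1.23 CPM with DMSO (2 to 6 counts per library), 6.21 with abemaciclib and 5.69 with palbociclib. COL1A1 had 16.9, 11.5 and 11.9 CPM in the same order. COL3A1 was called higher with both drugs and COL1A1 lower with abemaciclib only. The part of any of these markers in the LGALS1 values was not tested.

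LGALS3 shared the rise in CAMA-1 but not the drop in ZR-75-1. Galectin-3 acts in cell adhesion, in the response to damaged lysosomes and in protection from apoptosis. In CAMA-1 its level was 66.2, 65.4 and 68.7 CPM with DMSO, 107, 115 and 102 CPM with abemaciclib, and 125, 127 and 120 CPM with palbociclib. The treated libraries all lay above those of DMSO, by a log2 fold change of 0.66 (SE 0.10, edgeR adjusted p = 3.7e-07) with abemaciclib and 0.86 (SE 0.09, edgeR adjusted p = 5.2e-10) with palbociclib. In ZR-75-1 the level was 43.7, 44.3 and 42.7 CPM with DMSO, 44.3, 51.2 and 50.3 CPM with abemaciclib, and 49.7, 55.1 and 56.0 CPM with palbociclib. There the log2 differences of 0.15 (95% interval -0.11 to 0.41, edgeR adjusted p = 0.41) and 0.29 (95% interval 0.04 to 0.54, edgeR adjusted p = 0.08) did not pass the threshold. With mitochondrial genes left out of the counts, the CAMA-1 values were 0.66 and 0.86, and those of LGALS1 were 0.58 and 0.84. In one fit over all 18 libraries, LGALS3 with palbociclib in ZR-75-1 did pass, at 0.30 with adjusted p = 0.049.

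The response of LGALS3 was smaller in ZR-75-1 than in CAMA-1 by -0.59 (SE 0.15, edgeR adjusted p = 0.0027) with palbociclib. With abemaciclib the difference was -0.53 (SE 0.16, edgeR adjusted p = 0.01). That second call was lost, with adjusted p = 0.065, 0.087 and 0.05, without CAMA-1 abemaciclib replicate 2, ZR-75-1 abemaciclib replicate 1 and ZR-75-1 DMSO replicate 2 respectively.

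LGALS3BP rose with both drugs in both lines, with larger fold rises than the other members that passed the filter. In CAMA-1 it was near the limit of the counts with DMSO, at 3.50, 2.00 and 1.83 CPM (6 to 11 counts per library). It reached 9.76, 5.56 and 16.5 CPM with abemaciclib and 12.5, 11.1 and 15.6 CPM with palbociclib. Every treated library was above every DMSO library, although the abemaciclib libraries were spread widely. In ZR-75-1 it was 15.3, 13.7 and 16.5 CPM with DMSO, 44.3, 48.1 and 46.8 CPM with abemaciclib, and 48.1, 48.0 and 45.2 CPM with palbociclib. Here the treated libraries of both drugs were tightly grouped and far above those of DMSO.

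The log2 fold change of LGALS3BP in CAMA-1 was 2.13 (SE 0.38, edgeR adjusted p = 1.2e-05) with abemaciclib and 2.39 (SE 0.37, edgeR adjusted p = 9.8e-07) with palbociclib, or 4.39-fold and 5.24-fold. In ZR-75-1 it was 1.60 (SE 0.16, edgeR adjusted p = 4.2e-12) and 1.63 (SE 0.16, edgeR adjusted p = 3.2e-12), or 3.04-fold and 3.09-fold. These ranked 111th and 81st highest of 11053 genes in CAMA-1, and 167th and 138th highest of 11017 in ZR-75-1. The difference between the lines was not resolved, at -0.57 (95% interval -1.36 to 0.23, edgeR adjusted p = 0.36) for abemaciclib and -0.79 (95% interval -1.56 to -0.01, edgeR adjusted p = 0.15) for palbociclib. Nor was a difference between the drugs seen, at -0.26 (95% interval -0.83 to 0.32, edgeR adjusted p = 0.79) in CAMA-1 and -0.02 (95% interval -0.29 to 0.25, edgeR adjusted p = 0.94) in ZR-75-1.

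LGALS8 rose with both drugs in ZR-75-1, the line in which LGALS1 was lowest with abemaciclib, and passed the threshold with neither drug in CAMA-1. Galectin-8 recognises sugars exposed on damaged endosomes and recruits the autophagy receptor CALCOCO2. In ZR-75-1 its level was 64.2, 64.4 and 68.5 CPM with DMSO, 109, 99.3 and 105 CPM with abemaciclib, and 92.8, 97.3 and 88.0 CPM with palbociclib. The DMSO libraries were below all treated ones, by 0.66 (SE 0.10, edgeR adjusted p = 5.4e-07) with abemaciclib and 0.49 (SE 0.10, edgeR adjusted p = 0.00017) with palbociclib. In CAMA-1 the level was 74.8, 84.8 and 94.6 CPM with DMSO, 68.6, 71.0 and 89.4 CPM with abemaciclib, and 106, 98.4 and 98.7 CPM with palbociclib. The abemaciclib libraries overlapped those of DMSO and the palbociclib libraries lay just above them.

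In CAMA-1 the log2 fold changes of LGALS8 were -0.19 (95% interval -0.40 to 0.03, edgeR adjusted p = 0.17) with abemaciclib and 0.22 (95% interval 0.01 to 0.42, edgeR adjusted p = 0.1) with palbociclib. The first passed the threshold without CAMA-1 abemaciclib replicate 3 (-0.32, adjusted p = 0.032), and the second without CAMA-1 DMSO replicate 3 (0.30, adjusted p = 0.027). The lines differed in the abemaciclib response by 0.83 (SE 0.15, edgeR adjusted p = 2.8e-05), and for palbociclib by 0.25 (95% interval -0.04 to 0.54, edgeR adjusted p = 0.26). LGALS8 was lower with abemaciclib than with palbociclib in CAMA-1 by -0.40 (SE 0.11, edgeR adjusted p = 0.027), but DESeq2 gave an adjusted p of 0.19. That call was kept in 1 of 6 fits with a library of those groups removed, the one without CAMA-1 abemaciclib replicate 3 (-0.54, adjusted p = 0.0077).

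The end of LGALS8 needs care, since it overlaps HEATR1, a gene for ribosome production on the opposite strand, over 2095 exonic bases in GENCODE 44. The strand setting of the counting was not given in the sources used here. HEATR1 had 2333 counts over all libraries. Its mean in CAMA-1 was 31.4 CPM in the controls, 33.6 CPM under abemaciclib and 31.4 CPM under palbociclib. The same means in ZR-75-1 were 47.9, 49.2 and 48.5 CPM. The log2 differences of HEATR1 from DMSO lay between -0.03 and 0.07, with edgeR adjusted p of 0.77 to 0.97. With the strand setting unknown, these counts cannot show which reads of the overlap were counted for LGALS8. The part of the overlap in the LGALS8 values was not tested. HEATR1 was chosen after its overlap was seen in the annotation.

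**Figure D2:**
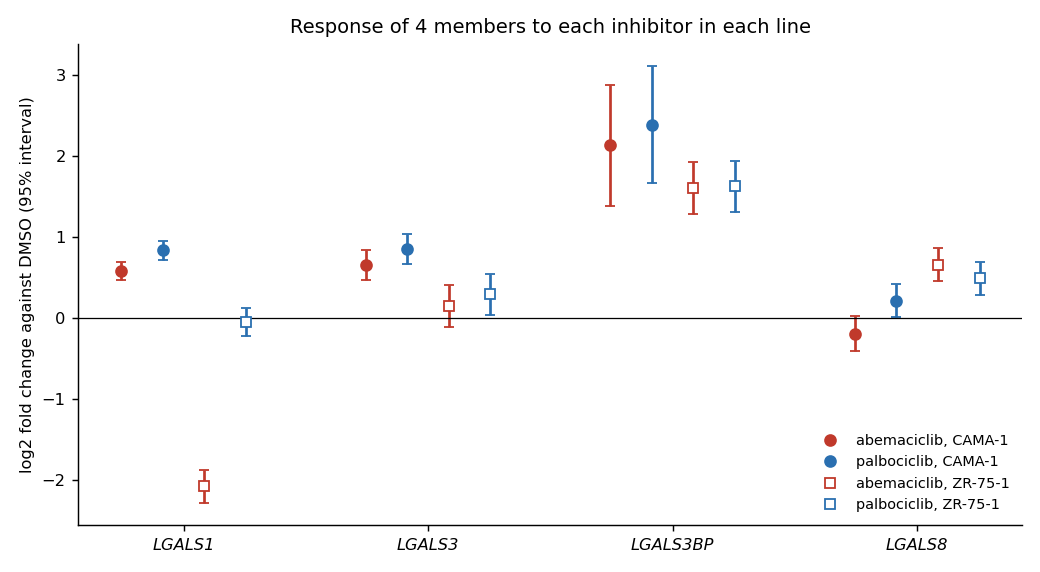
The log2 fold change against DMSO (vertical axis) of 4 members with each inhibitor in each line; marks are edgeR estimates from 3 against 3 libraries and bars are 95% intervals, with circles for CAMA-1 and squares for ZR-75-1. LGALS1 with abemaciclib runs from 0.58 in CAMA-1 to -2.07 in ZR-75-1, and all 4 intervals of LGALS3BP lie above 0.

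LGALS9, whose product binds the immune receptor TIM-3, was barely present. Its raw counts per library ran from 0 to 4, with 3, 7 and 11 counts in all for DMSO, abemaciclib and palbociclib in CAMA-1. The ZR-75-1 totals were 2, 5 and 8. These counts were too few to compare, and its near-identical copies LGALS9B and LGALS9C could share its reads. LGALS9B and LGALS4 had 1 count each in the whole series. No count at all was found for LGALS2, LGALS7, LGALS7B, LGALS9C, LGALS12, LGALS13, LGALS14, LGALS16 or CLC. The galectin-like gene LGALSL, the one further family member to pass the filter, had means of 10.5, 6.65 and 4.80 CPM with DMSO, abemaciclib and palbociclib in CAMA-1. It fell by 1.15 on the log2 scale with palbociclib (SE 0.31, edgeR adjusted p = 0.0027), while the difference with abemaciclib was -0.65 (SE 0.30, edgeR adjusted p = 0.078). In ZR-75-1 its differences of -0.23 and 0.13 had adjusted p of 0.74 and 0.86.

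Counted over the members, abemaciclib changed 2 of the 3 tested in CAMA-1, where 40.3% of all tested genes were called, and 2 of 3 in ZR-75-1, where 36.2% were called. Besides LGALS1, palbociclib changed 2 of 3 in CAMA-1 (LGALS3 and LGALS3BP) against 37.1% of all genes. In ZR-75-1 it changed 2 of 3 (LGALS3BP and LGALS8) against 27.9%. Every called member was higher with the drug. Abemaciclib and palbociclib differed in 1 of 3 members in CAMA-1, against 2.33% of genes. In ZR-75-1 edgeR called 0 of 3, as did DESeq2, and 0 had an unadjusted p under 0.05, against 13.2% of all genes called. The lines differed in the abemaciclib response of 2 of 3 members, against 18.2% of genes, and in the palbociclib response of 1 of 3 (LGALS3), against 20.3%. With so few members, these shares are a description.

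After 5 days with DMSO, the lines differed in all 3 members tested besides LGALS1, in a comparison in which 61.3% of genes were called. In untreated ZR-75-1, LGALS1 was lower than in CAMA-1 by -2.12 on the log2 scale (SE 0.07), or 4.35-fold, given without a test because these DMSO libraries are part of the contrast on which it was selected. LGALS3 was lower by -0.62 (edgeR adjusted p = 2.8e-06) and LGALS8 by -0.37 (edgeR adjusted p = 0.0022). LGALS3BP went the other way, at 2.65 higher (edgeR adjusted p = 3.5e-11), or 6.27-fold. 

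Since 3′ reads are taken once per transcript end, the make-up of the galectin pool can be set out with little influence of transcript length. The 4 galectin genes summed to 915 ± 24.0 CPM in CAMA-1 with DMSO, 1351 ± 45.1 with abemaciclib and 1618 ± 21.2 with palbociclib, each as SD over 3 libraries. The ZR-75-1 sums were 285 ± 3.37, 196 ± 2.84 and 317 ± 18.8 CPM. LGALS1 made up 83.4% of the pool in CAMA-1 with DMSO, 86.3% with abemaciclib and 86.0% with palbociclib. In ZR-75-1 it made up 61.6% ± 0.43 with DMSO, 53.5% ± 2.92 with palbociclib and 21.4% ± 1.40 with abemaciclib (SD, n = 3). There LGALS8 took the larger share, 53.4% ± 3.21 against 23.1% ± 0.64 with DMSO. These shares contain the LGALS1 values on which it was selected and are given without a test. They also depend on how reads in the overlap of LGALS8 and HEATR1 were counted, which is not known.

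**Figure D3:**
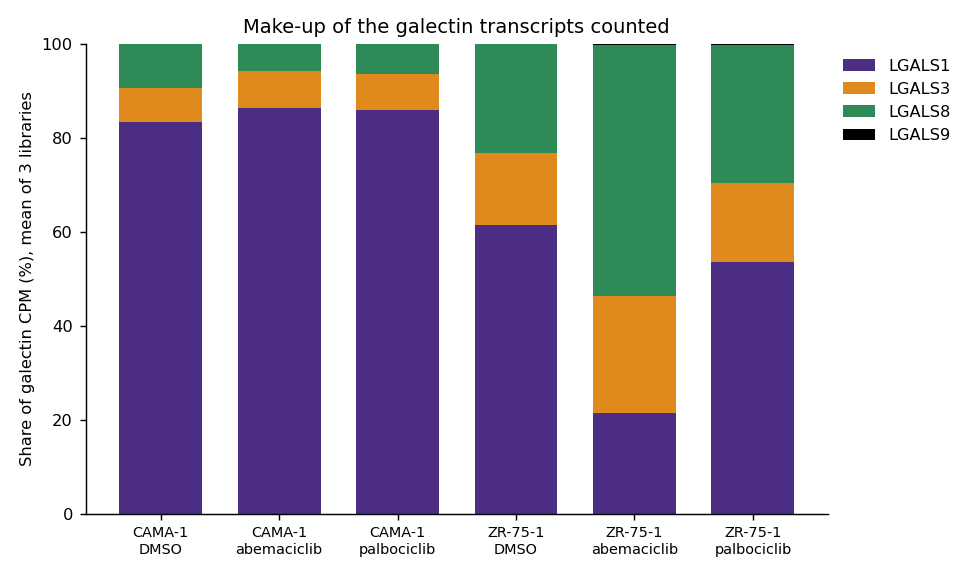
Share of the summed CPM of 4 galectin genes (vertical axis, %, from 0) held by each gene in the 6 groups; stacked bars are means of 3 libraries. LGALS1 holds over 83% in all CAMA-1 groups and 21.4% in ZR-75-1 with abemaciclib, where LGALS8 holds 53.4%.

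The sugars that galectins bind are built in the Golgi, and genes of that work were followed as a list of 21. B4GALT1 adds galactose in the chains galectins recognise, ST6GAL1 caps that galactose with sialic acid and is known to block galectin-1 and galectin-3 binding, and MGAT1 and MGAT2 start the branches of N-glycans. Of 20 tested in CAMA-1, 8 were higher and 4 lower with abemaciclib, and 4 higher and 2 lower with palbociclib, where 40.3% and 37.1% of all tested genes were called. Their median log2 fold change was 0.23 and 0.06, against 0.01 and 0.00 over all genes. Of 18 tested in ZR-75-1, 5 were higher with abemaciclib and 2 with palbociclib, and no gene was called lower, where 36.2% and 27.9% of all genes were called. The palbociclib counts in both lines and the abemaciclib count in ZR-75-1 thus lay below the share of all genes. Here the list's medians were -0.16 and 0.11, so that with abemaciclib the median and the calls had opposite signs.

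In CAMA-1, B4GALT1 rose by 1.02 with abemaciclib and 1.12 with palbociclib on the log2 scale (edgeR adjusted p = 4e-16 and 2.3e-17). ST6GAL1 rose by 1.97 and 2.08 (edgeR adjusted p = 1.6e-07 and 3.5e-08), from 2.00 to 8.01 CPM across DMSO libraries to 18.7 to 24.1 CPM across treated ones. Without CAMA-1 DMSO replicate 3, which held 35 of the 53 DMSO counts, its values were 2.71 and 2.81. ST6GAL1 had at most 4 counts in any ZR-75-1 library. B3GNT2, which extends polylactosamine chains, rose by 0.61 with abemaciclib, and GCNT1, which branches O-glycans, by 1.11 with palbociclib. On the lower side, ST3GAL1, a sialyltransferase of O-glycans, fell by 0.83 and 0.37, MGAT1 fell by 0.39 and MGAT2 fell by 1.62 with abemaciclib, and the branching enzyme MGAT4A fell by 0.53 with palbociclib. Some of these calls rested on single libraries. GCNT1 stood at 0.68 (adjusted p = 0.12) without CAMA-1 palbociclib replicate 1. The abemaciclib calls of MGAT1 and MGAT2 were lost without CAMA-1 abemaciclib replicate 1 (-0.25 and -1.17, adjusted p = 0.12 and 0.089) or CAMA-1 DMSO replicate 2 (-0.31 and -1.35, adjusted p = 0.058 and 0.059). The palbociclib calls of MGAT4A and ST3GAL1 were lost without CAMA-1 palbociclib replicate 2 (-0.41 and -0.29, adjusted p = 0.095 and 0.11), and without CAMA-1 DMSO replicate 2 for MGAT4A (-0.48, adjusted p = 0.054) or replicate 3 for ST3GAL1 (-0.21, adjusted p = 0.26). DESeq2 gave adjusted p of 0.06 for MGAT2, 0.099 for MGAT4A and 0.13 for ST3GAL1 in those comparisons, and one fit over all 18 libraries gave 0.07 for ST3GAL1.

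In ZR-75-1, SLC35A2, which carries UDP-galactose into the Golgi, rose by 0.81 with abemaciclib and 0.54 with palbociclib (edgeR adjusted p = 1.3e-07 and 0.00042). B4GALT3, a relative of B4GALT1, rose by 0.46 with abemaciclib and B4GALT1 itself by 0.72 with palbociclib. C1GALT1C1, the chaperone of the O-glycan galactosyltransferase, rose by 0.74 with abemaciclib (edgeR adjusted p = 0.015), a call lost without ZR-75-1 abemaciclib replicate 3 (0.53, adjusted p = 0.15) or ZR-75-1 DMSO replicate 1 (0.59, adjusted p = 0.098), and under DESeq2 (0.76, adjusted p = 0.099).

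**Figure D4:**
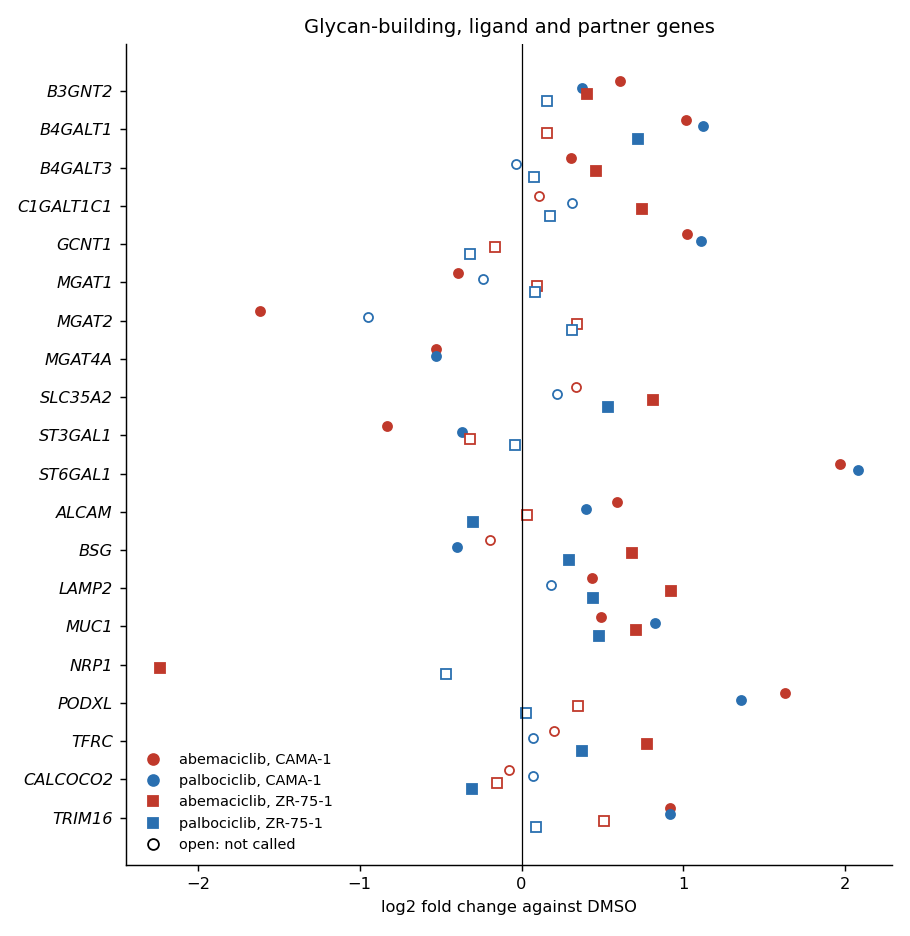
The log2 fold change against DMSO (horizontal axis) of glycan-building genes (top, B3GNT2 to ST6GAL1), glycoprotein ligands (ALCAM to TFRC) and cytoplasmic partners (CALCOCO2 and TRIM16); circles are CAMA-1, squares ZR-75-1, and filled marks passed edgeR's adjusted p of 0.05. ST6GAL1 is the farthest right, at 1.97 and 2.08 in CAMA-1, and MUC1 is filled to the right of 0 in all 4 comparisons.

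Among 17 glycoproteins known to bind galectins, 9 were tested in CAMA-1 and 12 in ZR-75-1. In CAMA-1, 5 were higher and 0 lower with abemaciclib, and 4 higher and 1 lower with palbociclib. In ZR-75-1, 5 were higher and 1 lower with each drug. Over all tested genes, 40.3% and 37.1% were called in the CAMA-1 comparisons and 36.2% and 27.9% in the ZR-75-1 comparisons. The median log2 fold change of the list was 0.44 with abemaciclib and 0.40 with palbociclib for CAMA-1 cells, and 0.31 and 0.10 for ZR-75-1 cells, while that of all genes stayed within 0.01 of 0. MUC1, the mucin that galectin-3 binds on breast cancer cells, rose in each: by 0.49 and 0.82 with abemaciclib and palbociclib in CAMA-1 cells, and by 0.71 and 0.48 in ZR-75-1 cells, with edgeR adjusted p of at most 1.3e-06.

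Other ligands were called in some of the comparisons. The sialomucin PODXL rose by 1.63 and 1.35 in CAMA-1 (edgeR adjusted p = 5.4e-13 and 1.4e-10), and in ZR-75-1 the lysosomal membrane protein LAMP2 rose by 0.93 and 0.44 and the transferrin receptor TFRC by 0.77 and 0.37. ALCAM, an adhesion molecule, rose by 0.59 and 0.40 in CAMA-1 and fell by 0.30 with palbociclib in ZR-75-1. BSG, which encodes basigin, fell by 0.40 with palbociclib in CAMA-1. NRP1, neuropilin-1, a receptor that galectin-1 binds, fell by 2.23 with abemaciclib in ZR-75-1 (edgeR adjusted p = 7.5e-05), from 78 counts over 3 DMSO libraries to 15. The BSG call was lost without CAMA-1 DMSO replicate 2 (-0.26, adjusted p = 0.074), and the palbociclib call of TFRC without ZR-75-1 palbociclib replicate 3 (0.24, adjusted p = 0.086).

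Of 3 cytoplasmic partners that meet galectins at damaged membranes, TRIM16, which works with galectin-3, rose by 0.92 and 0.91 in CAMA-1 (edgeR adjusted p = 4.2e-05 and 3.7e-05). CALCOCO2, the partner of galectin-8, fell by 0.31 with palbociclib in ZR-75-1 (edgeR adjusted p = 0.018), although DESeq2 gave an adjusted p of 0.11. The call was also lost without ZR-75-1 DMSO replicate 1, ZR-75-1 DMSO replicate 3 or ZR-75-1 palbociclib replicate 2 (-0.29, -0.29 and -0.26, adjusted p = 0.07, 0.06 and 0.09). No other partner was called in the 4 comparisons with DMSO.

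The genes whose levels followed each member most closely were ranked by Pearson's r over the 18 libraries after the mean of each line was removed, among 10860 genes. These values describe libraries that share 6 groups and a common scaling, and carry no p. LGALS1 was closest to the mitochondrial serine tRNA MT-TS1 (r = 0.96), the cytoplasmic actin ACTG1 (r = 0.94) and the galanin gene GAL (r = 0.93). These r include the abemaciclib values on which LGALS1 was selected. LGALS3 was closest to the vesicle-traffic gene RAB11FIP1 (r = 0.97), the phospholipase PLAAT3 (r = 0.95) and XBP1, a factor of the secretory stress response (r = 0.95). LGALS3BP was closest to the lipid-droplet gene PNPLA3 (r = 0.97), the cadherin CELSR2 (r = 0.95) and the myosin MYO10 (r = 0.94). LGALS8 had weaker companions, SEMA3C, a semaphorin, at r = 0.89, GRPEL1, a mitochondrial import co-chaperone, at r = 0.88, and the translation factor EIF5B at r = 0.87. Within a single line some r were lower. In CAMA-1 and ZR-75-1 they were 0.71 and 0.97 for ACTG1, 0.71 and 0.96 for GRPEL1, and 0.97 and 0.77 for XBP1.

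In the genome, LGALS1 lies on chromosome 22 (chr22:37675636-37679802, plus strand), LGALS3 on chromosome 14 (chr14:55124110-55145423, plus strand) and LGALS3BP on chromosome 17 (chr17:78971238-78979947, minus strand). LGALS8 lies on chromosome 1 (chr1:236518000-236552981, plus strand) and LGALS9 on chromosome 17 (chr17:27629798-27649560, plus strand), all by GENCODE 44 on GRCh38. These positions are whole protein-coding genes, exons and introns included, and LGALS1, LGALS3 and LGALS3BP overlap no other annotated gene.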

How the data were processed

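RNA from CAMA-1 and ZR-75-1 cells was measured by 3′ RNA-seq in 18 libraries, 3 for each line and treatment, which the study's reporting summary describes as independent biological replicates. P-values measure the spread between them. The same summary says that the RNA-seq of these lines with each drug was done once. Spread between repeated experiments is therefore not covered. The authors aligned reads with STAR 2.7.5b to hg38 and deposited raw counts per gene from featureCounts 2.0.1, with no normalisation. The labels name an RW and the methods an FW version of the library kit, and the strand setting and the treatment of multi-mapping reads were not given in the sources used here. The 60656 gene rows were matched to symbols by Ensembl ID.

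Counts were filtered with edgeR's filterByExpr (minimum count 10), scaled by TMM and tested within each line with edgeR 4.0.16 (glmQLFit and glmQLFTest, 9 libraries per fit), and over all 18 libraries for differences between lines. Adjusted p-values (Benjamini-Hochberg) cover all genes tested. R 4.3.3 and limma 3.58.1 were used, and DESeq2 1.42.0 as an alternative. Scripts were tested on simulated data. Alternatives were other scaling, no filter or a stricter one, mitochondrial genes left out, a replicate block, other sets of libraries and each library left out.

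The members and gene lists were chosen with earlier results of these data known. Named genes were the 5 members, family genes that passed the filter, and up to 3 called genes (by p) for either direction of each list in each comparison with DMSO, plus the 3 most similar genes per member. HEATR1, ACTA2 and marker genes named beside a result fall outside this rule. Intervals and counts of 0 cover counting error and replicate spread only.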

Additional observations from a re-analysis of the deposited data

Results flagged for a closer look

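The following responses were flagged as differing between CAMA-1 and ZR-75-1 by an interaction term in edgeR over 18 libraries (log2 difference, ZR-75-1 minus CAMA-1). The abemaciclib response of LGALS3 was lower in ZR-75-1, at -0.53 (SE 0.16, adjusted p = 0.01). That of LGALS8 was higher, at 0.83 (SE 0.15, adjusted p = 2.8e-05). The palbociclib response of LGALS1 was lower in ZR-75-1, at -0.91 (SE 0.10). Its flag came from the same term. It is given as a description without a test, since it shares its DMSO libraries with the contrast on which LGALS1 was selected. The palbociclib response of LGALS3 was lower, at -0.59 (SE 0.15, adjusted p = 0.0027).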

How the results depend on the processing

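Of 304 comparisons of a member's value with its value under another scaling, filter, tool or set of libraries, 301 were unchanged. So were 251 of 264 in which a library was left out. For LGALS1 with abemaciclib, unchanged meant the same direction and a shift smaller than its SD between replicates. For all other values, those of LGALS1 without abemaciclib included, it meant the same direction and side of the threshold. These LGALS1 values were unchanged in 15 of 15 alternatives with palbociclib in CAMA-1 and 14 of 15 in ZR-75-1. They were so in 19 of 19 for the line difference in that response and 14 of 14 for the lines with DMSO. As LGALS1 was selected on these data, its part of both totals is a description and no test of it. DESeq2 called 1922 genes with palbociclib in ZR-75-1, 150 between the drugs in CAMA-1 and 763 between the drugs in ZR-75-1, against 3069, 257 and 1451 by edgeR, and 0 members between the drugs in CAMA-1. The cause was not tested. With a library left out, members called between the drugs in CAMA-1 ran from 0 to 1 and genes called from 151 to 197, and members whose abemaciclib response differed between lines from 1 to 2. Values near 0 changed sign. LGALS3BP between the drugs in ZR-75-1 was 0.0045 by upper-quartile scaling and -0.046 to 0.0081 without single libraries, LGALS1 with palbociclib in ZR-75-1 was -0.13 to 0.030, and LGALSL in ZR-75-1 was -0.45 to 0.019 with abemaciclib and -0.19 to 0.35 with palbociclib. HEATR1 was -0.049 to 0.18 and -0.23 to 0.093 in CAMA-1 with abemaciclib and palbociclib, and -0.14 to 0.16 and -0.045 to 0.048 in ZR-75-1, with -0.0073 by upper-quartile scaling for the last. LGALS3BP in CAMA-1 with abemaciclib ranged from 1.68 to 2.45 over the alternatives.

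Same-numbered replicates of different groups did not deviate together (r of -0.080 to 0.024 in CAMA-1 and -0.027 to 0.0033 in ZR-75-1), so the main fits used no pairing. A weak shared effect could be hidden by counting noise in this check. A replicate block left 2 members called with abemaciclib in CAMA-1 and 4358 genes called, against 4457 without it. Counts under 5 per library kept LGALS9 from any comparison, and with 6 to 11 counts per CAMA-1 DMSO library the fold change of LGALS3BP there was the least precise.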
